A study of Mus musculus with 23 samples.

Results

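The COMMD genes, *Commd1* to *Commd10*, were examined in bulk RNA-Seq of mouse neutrophils and whole lung. The family was selected on a measured value: *Commd10* was among the genes that differed most between *Piezo1*-cKO and WT neutrophils, and its relatives were added by name. All 10 members were found among the 21878 genes listed for sorted neutrophils and among the 55335 genes listed for whole lung. The contrast of genotypes is therefore given as a description, without a test, whereas the contrasts of tissues and of neutrophil depletion were not part of the choice.

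All samples came from mice, whose age the labels do not give, and purchased WT mice were of the C57BL/6J strain. CD45+CD11b+Ly6G+ neutrophils were sorted from perfused lung, peripheral blood (PB) and bone marrow (BM) of WT mice (lung, PB and BM, n = 3 libraries each). In a second experiment they were sorted from lung and PB of WT mice (lung_WT and PB_WT, n = 2 each) and of *Piezo1*-cKO mice (lung_cKO and PB_cKO, n = 2 each). *Piezo1*-cKO mice carried Vav1-Cre and homozygous loxP sites in *Piezo1*, a channel opened by membrane stretch. The Vav1 promoter drives Cre in all blood cell lineages and not in neutrophils alone, and whether the WT mice of the RNA-Seq carried the Cre transgene or the loxP sites is not given in the sources used here, although in the study's imaging the WT mice were floxed and named without Cre. Whole lung came from WT mice given an anti-Ly6G antibody (PMN deletion, n = 3) or an isotype control (n = 3). The libraries of the tissue experiment came from separate mice, as the study describes them. For the *Piezo1* experiment and whole lung the sources used here do not say that the libraries of a group came from separate mice, so p values there measure the spread between these libraries, which may be technical.

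COMMD proteins are small proteins that share a carboxy-terminal COMM domain, through which they pair with one another. Together with CCDC22 and CCDC93 they form the CCC complex, which joins the Retriever subunits VPS35L, VPS26C and VPS29 and the protein DENND10 in the Commander complex. Commander works with SNX17 and the actin-nucleating WASH complex to return membrane proteins, among them integrins, from endosomes to the cell surface. COMMD1, the founding member, is also known for copper export and for ending NF-kB transcription, and COMMD3 and COMMD8 form a pair that acts on chemoattractant receptors.

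Recovered reads numbered 16502148 to 19330774 per library in the tissue experiment and 9621120 (PB_cKO, replicate 1) to 15034817 in the *Piezo1* experiment. A gene with no read in a library may still have up to 3 reads' worth of signal there. FPKM, a read level set per transcript length and per depth of the library, compares genes per length, and the depth behind whole-lung FPKM is unknown. The 7 neutrophil markers summed to 41320 to 136080 FPKM in sorted libraries, and all 7 were detected there at 1 FPKM or more. Of the other marker lists in sorted libraries, B cell markers summed to at most 0.927 FPKM, endothelial to at most 3.38, platelet to at most 3.69 and T and NK cell to at most 6.18. Alveolar epithelial markers reached 24.1 FPKM in PB, where 1 of 3 was at 1 FPKM or more, against at most 4.90 in sorted lung libraries. Eosinophil markers reached 26.1 FPKM. Monocyte and macrophage markers summed to 55.3 to 174, against 98.3 to 111 in whole lung, with 2 to 4 of 6 at 1 FPKM or more in sorted libraries. *Piezo1* itself could not check the genotype labels: it had 8 and 8 reads in lung_WT, 7 and 4 in lung_cKO, 5 and 5 in PB_WT and 3 and 10 in PB_cKO, with overlapping values in PB. Erythroid markers summed to 24.8 and 26.7 FPKM in PB_WT and to 1011 and 1136 in PB_cKO, against 5.11 and 5.12 in lung_WT and 0.422 and 1.70 in lung_cKO. The erythroid sum therefore moved with the genotype in PB, and the other way in lung.

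*Commd10* lies on the plus strand of chromosome 18 at 46958816 to 47234284 (GRCm38, GENCODE vM21) and shares no exon bases with another gene. In lung neutrophils it had 1.30 and 1.45 FPKM in WT, from 39 and 44 reads, and 41.2 and 44.4 FPKM in *Piezo1*-cKO, from 1224 and 1280 reads. In PB neutrophils it had 0.601 and 0.165 FPKM in WT, from 16 and 5 reads, and 65.7 and 64.0 FPKM in *Piezo1*-cKO, from 1277 and 1831 reads. Every *Piezo1*-cKO library thus lay far above every WT library in both tissues. The ratio of the group means was 31.2 in lung and 169 in PB, the latter against WT libraries with few reads. On the log2(FPKM + 1) scale the difference was 4.21 in lung and 5.59 in PB. *Commd10* stood first in lung, where *Dbi* followed with 1.80, and second of 7256 genes in PB, between the hemoglobin genes *Hbb-bt* (5.73) and *Hba-a1* (5.32). Of all genes, 0.793% were called higher and 0.202% lower in lung_cKO than in lung_WT, and 1.68% higher and 1.97% lower in PB_cKO than in PB_WT. These percentages are background, since this contrast chose the family. After rescaling of FPKM, the genes called in lung were 36 higher and 17 lower in place of 51 and 13.

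**Figure D1:**
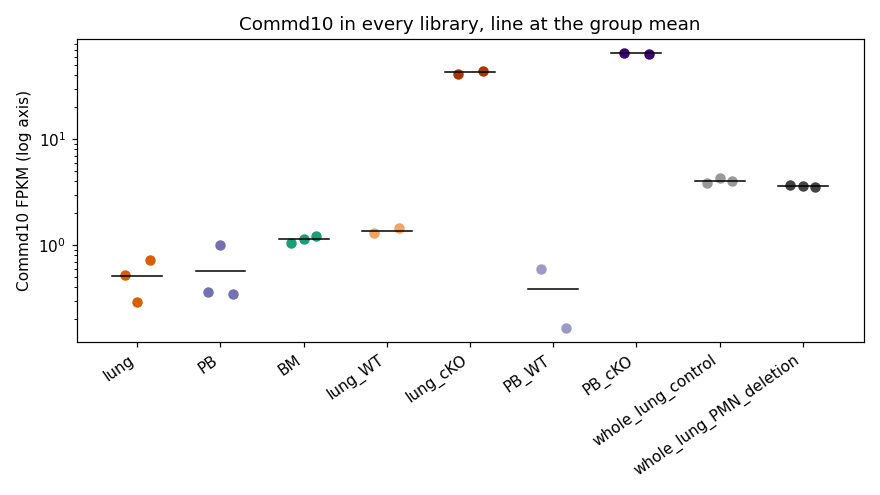
*Commd10* FPKM (log axis) in each of the 23 libraries by group, with a line at the group mean. The lung_cKO and PB_cKO libraries sit at 41.2 to 65.7 FPKM and all other sorted libraries at 0.165 to 1.45 FPKM, with whole lung between them.

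In the WT neutrophils of the tissue experiment *Commd10* was at the low end of detection. It had 0.520, 0.288 and 0.720 FPKM in lung (10 to 24 reads), 0.363, 0.994 and 0.346 in PB (13 to 37 reads), and 1.06, 1.15 and 1.21 in BM (41 to 45 reads). The BM libraries lay above all others, while lung and PB overlapped. Ordered by mean FPKM, the groups ran PB_cKO (64.9 ± 1.20 SD), lung_cKO (42.8 ± 2.31), lung_WT (1.37 ± 0.108), BM (1.14 ± 0.0779), PB (0.568 ± 0.369), lung (0.509 ± 0.216) and PB_WT (0.383 ± 0.308). The 3 lowest of these groups overlapped, whereas lung_WT and BM, next to each other in the order, were 1.30 or above and 1.21 or below. Levels of the different experiments stand side by side here although they come from different tables. Whole lung, which holds many cell types, had 3.85, 4.31 and 3.996 FPKM in controls and 3.71, 3.61 and 3.55 after PMN deletion.

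The genes next to *Commd10* had far smaller differences between genotypes. The 5 nearest genes on each side with a mean of at least 1 FPKM in any sorted neutrophil group were taken. *Ap3s1*, an AP-3 adaptor subunit gene 168 kb before *Commd10*, had 30.8 and 29.7 FPKM in lung_WT, 34.1 and 33.9 in lung_cKO, 32.2 and 31.1 in PB_WT, and 42.9 and 43.6 in PB_cKO. It lay above WT in both tissues, with the highest difference of the neighbours in PB, 0.44 on the log2(FPKM + 1) scale. *Atg12*, an autophagy gene 217 kb before, had 21.5 and 21.6 FPKM in lung_WT, 19.4 and 20.1 in lung_cKO, 36.2 and 38.5 in PB_WT, and 34.6 and 36.3 in PB_cKO. *Cdo1*, a cysteine dioxygenase gene, had 0.263 and 0.261 FPKM in lung_WT, 0.400 and 0.137 in lung_cKO, 0.645 and 0.696 in PB_WT, and 0.543 and 0.138 in PB_cKO. *Eif1a*, a translation initiation factor gene, had 15.6 and 16.1 FPKM in lung_WT, 22.2 and 21.3 in lung_cKO, 21.4 and 19.9 in PB_WT, and 20.6 and 21.7 in PB_cKO. It had the highest difference of the neighbours in lung, 0.43, while its PB groups overlapped. *Tmed7*, a gene of vesicle transport, had 33.0 and 32.1 FPKM in lung_WT, 29.2 and 28.9 in lung_cKO, 30.4 and 31.1 in PB_WT, and 36.3 and 36.4 in PB_cKO. On the other side, *Eno1b*, an enolase gene 957 kb away, had 17.03 and 18.3 FPKM in lung_WT, 17.1 and 15.9 in lung_cKO, 34.6 and 36.4 in PB_WT, and 30.03 and 29.5 in PB_cKO. *Dmxl1* had 0.378 and 0.296 FPKM in lung_WT, 0.366 and 0.520 in lung_cKO, 0.474 and 0.510 in PB_WT, and 0.244 and 0.110 in PB_cKO, and its difference of -0.34 in PB was the most negative among the neighbours in either tissue. *Tnfaip8* had 50.8 and 52.9 FPKM in lung_WT, 56.8 and 52.8 in lung_cKO, 44.2 and 42.7 in PB_WT, and 53.8 and 52.2 in PB_cKO. *Hsd17b4*, a gene of peroxisomal beta-oxidation, had 4.15 and 3.96 FPKM in lung_WT, 4.48 and 5.17 in lung_cKO, 5.85 and 5.93 in PB_WT, and 5.19 and 5.29 in PB_cKO. *Snx2*, a sorting nexin gene 6088 kb away, had 6.68 and 6.68 FPKM in lung_WT, 6.27 and 6.31 in lung_cKO, 19.5 and 20.2 in PB_WT, and 23.0 and 23.0 in PB_cKO. No neighbour approached the ratios of *Commd10*.

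**Figure D2:**
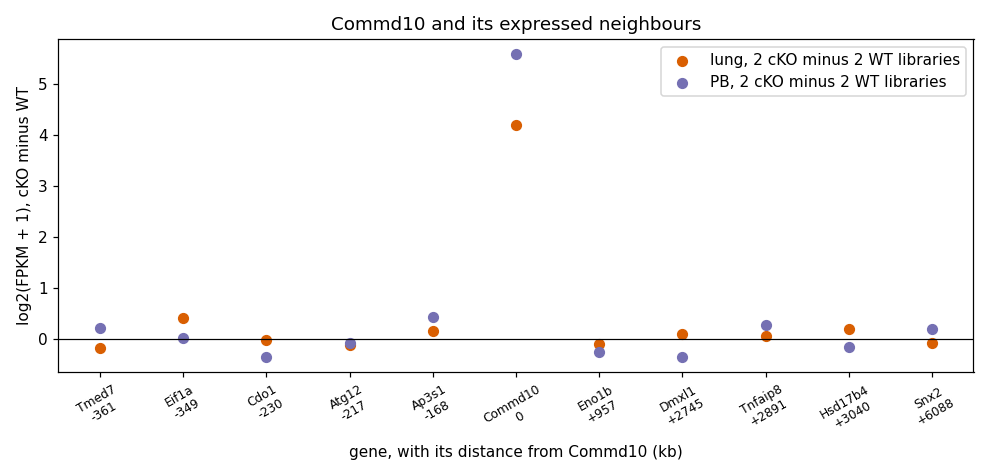
Difference in log2(FPKM + 1), *Piezo1*-cKO minus WT, for *Commd10* and its 5 nearest expressed genes on each side, ordered by distance in kb, in lung and PB (means of 2 libraries a group). *Commd10* stands at 4.21 and 5.59 and its neighbours between -0.34 and 0.44.

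The RefSeq gene table for GRCm38.p6 lists 5 names of the Vav1-Cre transgene, among them Vav-iCre, as synonyms of *Commd10*, and of no other gene in that table. The *Piezo1*-cKO mice carried a Vav1-Cre transgene, so transgene carriage and loss of *Piezo1* cannot be told apart in this design, and the part of the transgene in the *Commd10* reads was not tested. *Vav1* itself, whose promoter drives the transgene, had 43.7 and 43.6 FPKM in lung_WT, 47.3 and 46.2 in lung_cKO, 76.2 and 77.1 in PB_WT, and 77.2 and 75.4 in PB_cKO.

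The genes whose log2(FPKM + 1) ran most like that of *Commd10* over the 8 libraries of the *Piezo1* experiment were *Mcam*, *Pld4*, *Adgre5*, *Cpsf7* and *Sf3a2*, with Pearson correlations of 0.991, 0.988, 0.986, 0.976 and 0.975 among 7560 genes. These 8 points share 4 groups, and no test applies. *Mcam*, an adhesion molecule, had 0.931 to 1.05 FPKM in lung_WT, 2.05 to 2.32 in lung_cKO, 0.847 to 0.917 in PB_WT and 2.38 to 2.71 in PB_cKO. *Adgre5*, which encodes the adhesion receptor CD97, ran from 419 to 431 FPKM in the WT libraries and from 498 to 509 in the *Piezo1*-cKO libraries. Within the family the correlation with *Commd10* was 0.44 for *Commd9* and between -0.16 and 0.20 for the other members.

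Among the other 9 members, *Commd9*, linked to Notch receptor recycling, was the one whose groups stood furthest apart by genotype. In PB it had 0.129 and 0.453 FPKM in WT, from 2 and 8 reads, and 2.30 and 1.62 in *Piezo1*-cKO, from 26 and 27 reads. In lung it had 0.629 and 0.453 FPKM in WT and 0.0578 and 0.239 in *Piezo1*-cKO, all from few reads. *Commd9* was thus on the higher side in PB_cKO and on the lower side in lung_cKO, in libraries where the erythroid markers were also on those sides, and their part in the result was not tested. *Commd7* had 1.37 and 1.4995 FPKM in lung_WT and 2.61 and 3.04 in lung_cKO, and 8.60 and 8.78 in PB_WT and 10.1 and 10.7 in PB_cKO, with no overlap in either tissue. The ratios of means of *Commd1*, *Commd4*, *Commd5*, *Commd6* and *Commd8*, *Piezo1*-cKO over WT, were between 0.787 and 1.31 in lung and between 0.936 and 1.18 in PB. *Commd2* and *Commd3* had ratios of 1.33 and 0.880 in lung and 0.767 and 1.37 in PB.

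**Figure D3:**
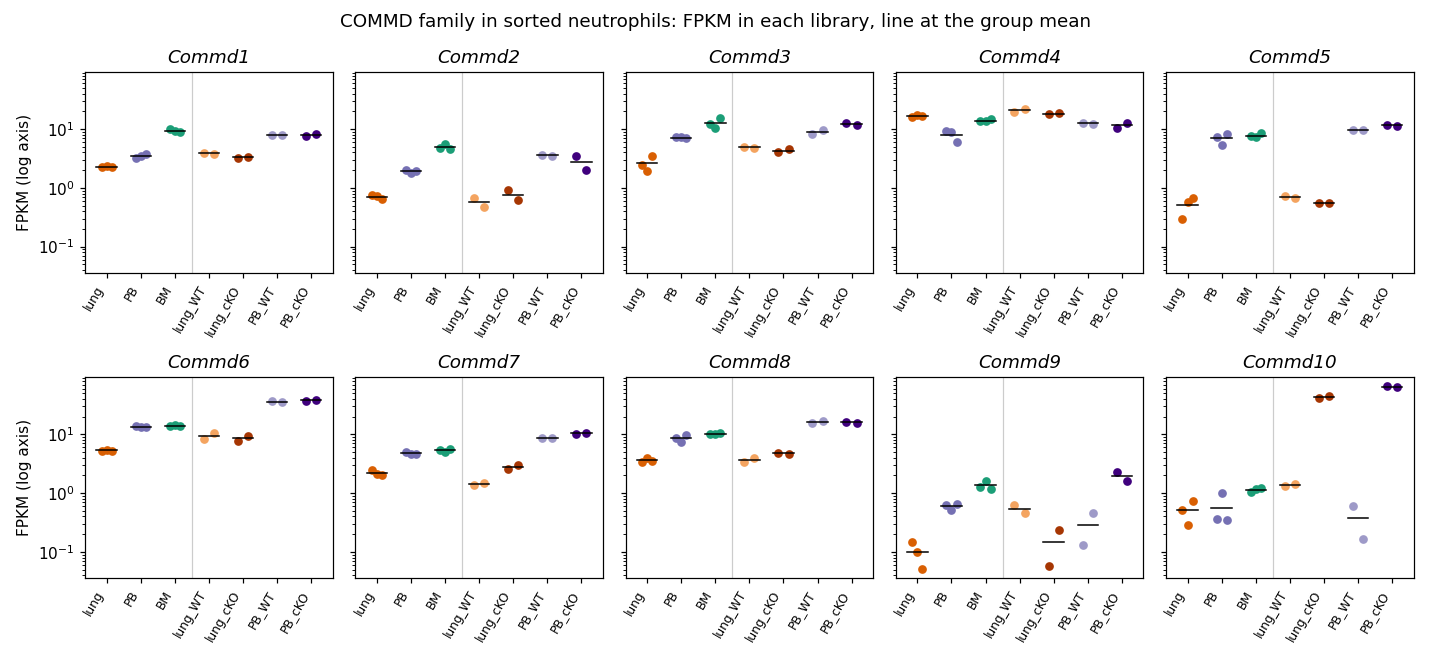
FPKM (log axis) of the 10 members in each of the 17 sorted neutrophil libraries, with a line at each group mean; a grey line parts the tissue experiment from the *Piezo1* experiment. *Commd5* lies at 0.292 to 0.740 FPKM in lung and at 5.33 to 11.9 in PB, and *Commd10* at 41.2 or above in *Piezo1*-cKO only.

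Lung and PB neutrophils were compared in WT mice of the tissue experiment, in WT mice of the *Piezo1* experiment and in *Piezo1*-cKO mice. In all of them *Commd5* was lower in lung, and *Commd4* was on the higher side. *Commd3*, *Commd5*, *Commd6* and *Commd8* were called lower in lung than in PB of the tissue experiment, 4 of the 8 members tested. The other 2 members, *Commd9* and *Commd10*, did not reach 1 FPKM in 3 libraries. A call required an adjusted p below 0.05 from limma and a difference above 1 on the log2(FPKM + 1) scale. In lung_WT against PB_WT, 5 of 9 tested were lower, namely *Commd2*, *Commd5*, *Commd6*, *Commd7* and *Commd8*. In lung_cKO against PB_cKO, 8 of 10 were lower, all but *Commd4* and *Commd10*. *Commd2* and *Commd5* reached 1 FPKM in no lung library of these comparisons, and *Commd9* in no lung_cKO library. Having met the FPKM minimum through PB alone, they could come out only lower in lung. No member was called higher. Of all genes tested, 19.5% were lower and 7.75% higher in the first comparison, 26.5% and 7.5% in the second, and 23% and 7.93% in the third. The median difference over all tested genes was -0.54, -0.62 and -0.54, and over the tested members -0.95, -1.54 and -1.34.

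This downward shift of most genes depends on the scale. When FPKM was rescaled so that the median gene had the same level in each library, the members called in lung against PB were 1 higher (*Commd4*) and 1 lower (*Commd5*) in the tissue experiment, where 12.2% of all genes were higher and 6.65% lower. In lung_WT against PB_WT they were 2 higher (*Commd4* and *Commd10*) and 5 lower, beside 12.5% higher and 10.5% lower among all genes. Of these 2 groups, *Commd10* as deposited had reached 1 FPKM in lung_WT alone. In lung_cKO against PB_cKO, 1 was higher (*Commd4*) and 5 were lower (*Commd5* to *Commd9*), at 13.2% and 8.46% overall. *Commd1* in the tissue experiment, at -0.44 as deposited, was at 0.00 after rescaling, and the difference of *Commd10* in *Piezo1*-cKO, -0.59 as deposited, was -0.02.

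**Figure D4:**
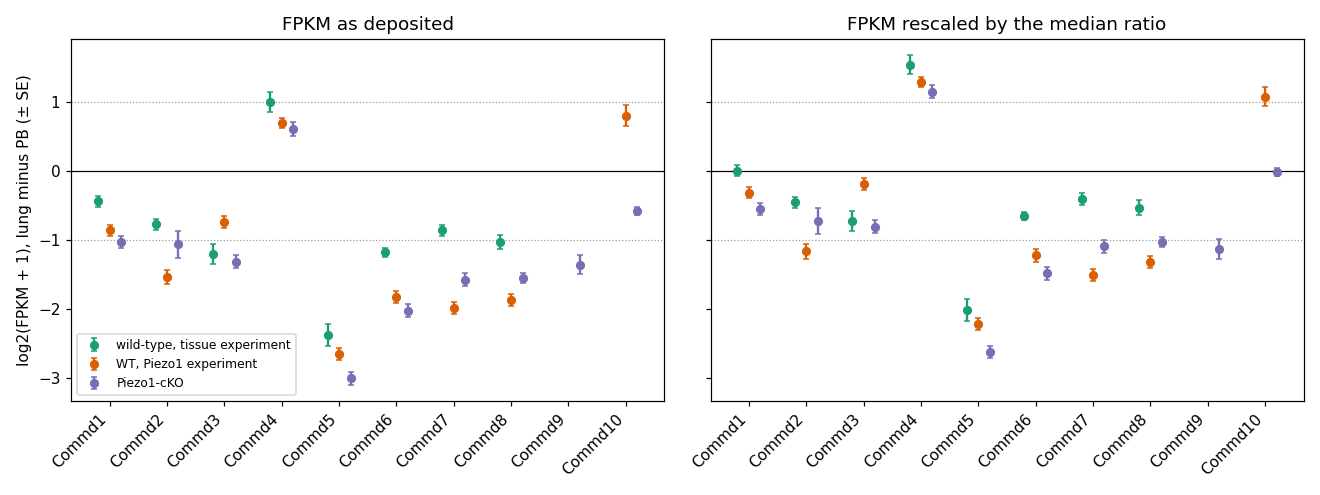
Difference in log2(FPKM + 1), lung minus PB, with its standard error for each member in the tissue experiment (3 against 3 libraries), WT and *Piezo1*-cKO mice (2 against 2 each), from FPKM as deposited (left) and rescaled by the median ratio (right). Dotted lines mark the threshold of 1. *Commd5* is lowest in every series and *Commd4* lies above 0 in all of them.

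*Commd5*, also named HCaRG for its link to blood pressure and calcium, had 0.292, 0.584 and 0.668 FPKM in lung and 7.24, 5.33 and 8.25 in PB. It had 0.740 and 0.666 FPKM in lung_WT against 9.80 and 9.68 in PB_WT, and 0.544 and 0.562 in lung_cKO against 11.9 and 11.2 in PB_cKO. No lung library came near a PB library, and the PB means were 13.5, 13.9 and 20.8 times the lung means. The differences were -2.38 (SE 0.16, adjusted p = 2.83e-06), -2.66 (SE 0.08, adjusted p = 1.38e-07) and -3.01 (SE 0.09, adjusted p = 5.47e-07, all from limma), and -2.02, -2.22 and -2.63 after rescaling. The gene met the FPKM minimum through PB alone, so its direction was set by that filter. *Commd5* lies on the plus strand of chromosome 15 at 76899910 to 76901305, and 932 of its 1396 exonic bases are shared with *Gm49527* on the same strand. *Gm49527* is not listed by that name among the genes of sorted neutrophils. How reads on the shared bases were counted is not given in the sources used here.

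*Commd4* ran the other way. It had 16.1, 17.4 and 16.5 FPKM in lung and 9.37, 8.76 and 5.93 in PB, and every lung library lay above every PB library. In the *Piezo1* experiment it had 19.5 and 22.1 FPKM in lung_WT, 12.8 and 12.2 in PB_WT, 18.1 and 18.4 in lung_cKO, and 10.5 and 12.9 in PB_cKO, again without overlap. The differences of 0.99 (SE 0.14), 0.69 (SE 0.07) and 0.60 (SE 0.10) had adjusted p values from limma of 0.000259, 6.97e-05 and 0.00114 but stayed under the threshold of 1. After rescaling they were 1.54, 1.29 and 1.15, above it. *Commd4* lies on the minus strand of chromosome 9 at 57155035 to 57158331.

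*Commd6*, which consists of little more than the COMM domain, had 5.27, 5.46 and 5.26 FPKM in lung and 13.7, 13.1 and 13.3 in PB, a difference of -1.19 (SE 0.06). In the *Piezo1* experiment it had 8.36 and 10.3 FPKM in lung_WT against 36.1 and 35.3 in PB_WT, and 7.68 and 9.30 in lung_cKO against 36.7 and 38.7 in PB_cKO. The PB level there was higher than in the tissue experiment, and the lung libraries lay below all PB libraries in both. *Commd8* had 3.43, 4.01 and 3.52 FPKM in lung and 8.78, 7.37 and 9.59 in PB, a difference of -1.04 (SE 0.10). It had 3.35 and 3.96 in lung_WT against 15.7 and 16.5 in PB_WT. Its partner *Commd3* had 2.45, 1.92 and 3.44 FPKM in lung and 7.18, 7.21 and 7.14 in PB, a difference of -1.20 (SE 0.14), and 4.88 and 4.83 in lung_WT against 8.27 and 9.45 in PB_WT, where the difference of -0.75 was not past the threshold. *Commd7* was at -0.86 in the tissue experiment and was called lower in lung_WT (-1.99, SE 0.08) and lung_cKO (-1.58, SE 0.09). *Commd2* had 0.768, 0.728 and 0.634 FPKM in lung and 2.04, 1.82 and 1.94 in PB. *Commd1* had 2.29, 2.33 and 2.29 FPKM in lung and 3.22, 3.49 and 3.77 in PB, and 706 of its 5936 exonic bases are shared with *Gm28048* on the same strand or *Zrsr1* on the opposite one (whether counting used strand is not given in the sources used here). *Commd10*, at 0.80 (SE 0.15) in lung_WT against PB_WT, was also on the higher side in WT, whereas lung and PB overlapped in the tissue experiment. It met the FPKM minimum through lung_WT alone, so it could come out only higher there. The *Piezo1* experiment also chose this gene, and the value is a description.

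To show the sequence at the starts of genes that differed in opposite ways, the stretch from 250 to 51 bases before the RefSeq start (GRCm38.p6) is given for *Commd4*, higher in lung after rescaling, and for *Commd7* and *Commd8*, lower in lung in the *Piezo1* experiment; 7 of the 10 members had an entry. Capitals mark matches on either strand to letters of known promoter motifs. The letters GGGCGG stand for Sp1. The box known as CCAAT is spelled by its own name. A box bound by the TATA-binding protein was searched as TATAAA. For the respiratory factor NRF1 the search used GCGCATG. Factors of the ETS family were represented by CCGGAAG. The core of the cyclic AMP response element, or CRE, was searched as TGACG. For the factor YY1 it was AAGATGG. None of the marked matches overlap.
Commd4 (chr9:57158350-57158549, minus strand): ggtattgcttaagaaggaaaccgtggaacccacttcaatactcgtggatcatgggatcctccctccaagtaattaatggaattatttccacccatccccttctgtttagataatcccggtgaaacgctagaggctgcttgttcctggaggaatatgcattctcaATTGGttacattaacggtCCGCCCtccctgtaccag
Commd7 (chr2:153632832-153633031, minus strand): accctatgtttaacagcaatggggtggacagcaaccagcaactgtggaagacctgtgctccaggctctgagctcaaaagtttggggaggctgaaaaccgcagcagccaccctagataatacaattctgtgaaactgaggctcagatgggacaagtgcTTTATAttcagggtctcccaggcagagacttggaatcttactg
Commd8 (chr5:72168240-72168439, minus strand): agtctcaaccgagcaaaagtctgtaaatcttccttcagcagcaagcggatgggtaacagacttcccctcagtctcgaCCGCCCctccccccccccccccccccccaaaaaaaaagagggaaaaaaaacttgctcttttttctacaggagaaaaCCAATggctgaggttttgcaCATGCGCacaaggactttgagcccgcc
*Commd4* and *Commd8* each held Sp1 letters and a CCAAT box, *Commd8* also NRF1 letters, and *Commd7* TATA letters on the opposite strand. Of the members with an entry that are not shown, *Commd6*, called lower in lung than in PB in each comparison, and *Commd9* held no match. *Commd3* held 4 Sp1 matches, and *Commd1* TATA letters on the opposite strand at 1 start and NRF1 letters at the other. Of the 32851 promoters searched, 24.6% held the Sp1 letters in this window, 28.4% the CCAAT box, 9.14% the TATA letters and 2.11% the NRF1 letters. The ETS letters stood in 3.98%, the CRE core in 12.7% and the YY1 letters in 3.80%. Matches are letters only and not shown to be bound.

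Against BM neutrophils, 7 of the 10 members were lower in lung, namely *Commd1*, *Commd2*, *Commd3*, *Commd5*, *Commd6*, *Commd8* and *Commd9*, at a background of 36% lower and 9.86% higher among 8236 genes. *Commd2*, *Commd5*, *Commd9* and *Commd10* reached 1 FPKM in BM but in no lung library, so the filter let them come out only lower. The medians were -1.25 over the members and -0.70 over all genes. After rescaling, *Commd1*, *Commd2*, *Commd3* and *Commd5* were lower, 4 of 8 tested, at 17.4% lower and 16.9% higher overall. *Commd4* was at 0.24 (SE 0.05), *Commd7* at -0.99 (SE 0.08) and *Commd10* at -0.51 (SE 0.10). In PB against BM, *Commd1* (-1.21, SE 0.08) and *Commd2* (-1.02, SE 0.09) were lower, 2 of 10, at 14.1% lower and 7.85% higher overall. After rescaling, *Commd1* alone was lower, at 13.3% lower and 8.54% higher overall.

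*Commd1* had 9.87, 9.42 and 8.86 FPKM in BM, and was highest in BM, then PB, then lung, without overlap between any of these groups. *Commd2* did the same, with 4.74, 5.52 and 4.65 FPKM in BM. *Commd3*, with 12.2, 10.3 and 15.2 in BM, and *Commd9*, with 1.29, 1.63 and 1.16 FPKM in BM, 0.625, 0.508 and 0.641 in PB, and 0.149, 0.0992 and 0.0516 in lung (1 to 3 reads), had the same order. *Commd5* and *Commd6* instead overlapped between PB and BM: *Commd5* had 7.52, 7.21 and 8.45 FPKM in BM, and *Commd6* 13.6, 14.6 and 13.9. Their differences of PB from BM, -0.15 (SE 0.14, adjusted p = 0.347) and -0.06 (SE 0.06, adjusted p = 0.345 from limma), did not pass the test.

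Read as shares of the family's summed FPKM, which no scaling of a whole library changes, the makeup of the family differed between tissues. *Commd4* made up 48.2% ± 1.45 (SD, n = 3) of the family in lung, 14.5% ± 3.30 in PB and 17.3% ± 0.0122 in BM. In WT mice of the *Piezo1* experiment it made up 44.0% ± 0.744 (n = 2) in lung and 12.1% ± 0.462 in PB. *Commd5* made up 1.48% ± 0.544 in lung, 12.5% ± 2.41 in PB and 9.58% ± 0.455 in BM. *Commd6* was the highest member in PB (24.1% ± 0.375) and PB_WT (34.4% ± 0.605), and *Commd4* in lung and lung_WT. In *Piezo1*-cKO neutrophils *Commd10* made up 49.7% ± 0.193 of the family in lung and 36.7% ± 0.518 in PB, against 2.91% ± 0.0186 in lung_WT and 0.369% ± 0.297 in PB_WT. Without *Commd10* the family summed to 45.7 ± 3.29 FPKM in lung_WT and 43.4 ± 2.01 in lung_cKO, and to 103 ± 0.420 in PB_WT and 112 ± 0.423 in PB_cKO. Among these other 9 members, *Commd4* made up 45.4% ± 0.775 in lung_WT and 42.1% ± 1.39 in lung_cKO.

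**Figure D5:**
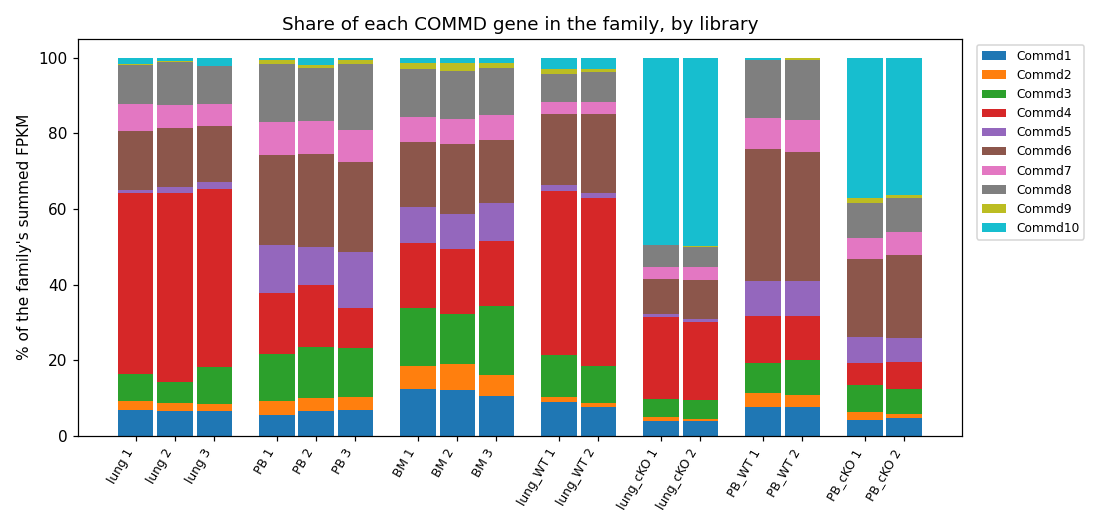
Share of each member in the family's summed FPKM (percent) in each sorted neutrophil library. *Commd4* makes up 48.2% in lung against 14.5% in PB on average, and *Commd10* 49.7% in lung_cKO and 36.7% in PB_cKO.

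Of the 6 other Commander genes, *Vps26c*, a Retriever subunit, was lower in lung in each comparison. It had 4.72 ± 0.318 FPKM in lung, 21.3 ± 0.972 in PB and 25.5 ± 0.890 in BM (n = 3), and 8.41 ± 0.351 in lung_WT and 44.9 ± 0.390 in PB_WT (n = 2). Its differences of lung from PB were -1.97, -2.29 and -2.30 as deposited, and -1.43, -1.68 and -1.75 after rescaling, all called. *Vps29*, shared by Retriever and retromer, had 17.05 ± 0.351 FPKM in lung, 9.84 ± 0.991 in PB and 10.4 ± 0.178 in BM. It was at 0.74, 0.51 and 0.89 in lung against PB, under the threshold, and at 1.29, 1.14 and 1.45 after rescaling, above it. *Dennd10* was lower in lung than in PB in the tissue experiment (-1.37) and in *Piezo1*-cKO (-1.36), and *Ccdc22* in lung_WT than in PB_WT (-1.11), though neither was called after rescaling. *Ccdc22* stayed under 1 FPKM in lung_WT, so it met the minimum through PB_WT alone and could come out only lower. *Ccdc93* and *Vps35l* were not called, with -0.92 and -0.46 in the tissue experiment. Between genotypes none of the Commander partners was called, of 4 tested in lung and 6 in PB. The ratios of means, *Piezo1*-cKO over WT, ran in lung from 0.869 (*Ccdc93*) to 1.71 (*Ccdc22*, with 0.476 and 0.472 FPKM in lung_WT and 0.933 and 0.684 in lung_cKO). *Vps35l* stood at 1.28 there, without overlap between its groups. In PB they ran from 0.777 (*Vps29*) to 1.37 (*Dennd10*), both without overlap.

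The genes that work beside Commander were taken from lists on the WASH complex (5 genes), retromer and sorting nexins (11), Commander cargo (6), copper handling (11) and NF-kB proteins linked to COMMD1 (12). In lung against PB of the tissue experiment, 1 of 5 WASH genes was lower (*Washc1*, -1.55) and, of 10 retromer and sorting nexin genes tested, 4 were lower and 1 higher, beside 19.5% lower and 7.75% higher among all genes. *Vps26b* (-1.45) and *Vps26a* (1.12), alternative retromer subunits, differed in opposite directions. After rescaling, *Vps26a* alone was called among them, at 1.69. Of 5 cargo genes tested, *Lrp1*, an endocytic receptor, was higher in lung (1.66). It had 2.82 to 3.30 FPKM in lung and at most 0.429 in PB. *Lrp1* thus met the FPKM minimum through lung alone and could come out only higher. After rescaling 2 of 6 cargo genes tested were higher. *Mt1* and *Mt2*, metallothioneins that bind copper and zinc, and *Cox17* were the 3 of 10 copper genes called, all higher, *Mt1* by 3.38 with 31.9, 25.7 and 23.7 FPKM in lung and 2.38, 1.43 and 1.34 in PB. After rescaling 6 of 10 copper genes were higher, at a background of 12.2%. In lung_WT against PB_WT 2 of 9 copper genes were higher (*Mt1* and *Ccs*) and in lung_cKO against PB_cKO 2 of 9 (*Mt1* and *Cox17*). *Ccs* stayed under 1 FPKM in PB_WT, so it met the minimum through lung_WT alone and could come out only higher. Of 11 NF-kB genes tested, 6 were higher, led by *Nfkb2* (3.10), *Rel* (2.77) and *Relb* (2.42), and *Rbx1*, a ring subunit of cullin ligases, was lower. All 6 higher genes were also higher in lung_WT than in PB_WT and in lung_cKO than in PB_cKO. *Cul2*, without reads in PB_cKO, met the FPKM minimum there through lung_cKO alone and could come out only higher in that comparison. After rescaling, 6 of 11 were called higher in each comparison of lung with PB, beside 12.2%, 12.5% and 13.2% of all genes.

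Against BM, 2 WASH genes and 8 retromer and sorting nexin genes were lower in lung and none was higher, of 5 and 10 tested and beside 36% lower and 9.86% higher among all genes. After rescaling, 1 WASH gene was lower and 1 higher, and 3 retromer and sorting nexin genes were lower and 1 higher, beside 17.4% and 16.9%. In PB against BM, 1 of 5 WASH genes was lower and no gene of 10 retromer and sorting nexin genes was. Of all genes, 14.1% were lower and 7.85% higher in PB than in BM. Of 10 copper genes in lung against BM 4 were higher and 2 lower, or 6 and 1 after rescaling, with *Slc31a2*, a copper transporter, at -2.30, and of 11 NF-kB genes 5 were higher and 1 lower, or 5 and 0 after rescaling. Between genotypes limma called no gene of these lists in lung, and in PB 1, *Ccs*, the copper chaperone of SOD1, at 1.12. *Ccs* had 0.710 and 0.935 FPKM in PB_WT and 2.82 and 3.11 in PB_cKO. It met the FPKM minimum through PB_cKO alone, so it could come out only higher. On recovered reads edgeR called 2 genes of these lists in lung, beside 3.4% higher and 1.96% lower among all genes. These were *Washc5*, a WASH subunit, with 0.777 and 1.06 FPKM in lung_WT and 2.02 and 2.57 in lung_cKO, and *Snx5*, a sorting nexin, with 1.51 and 1.45 in lung_WT and 0.518 and 0.589 in lung_cKO. *Snx5* met the FPKM minimum through lung_WT alone, so it could come out only lower. *Cul2*, which did not meet the FPKM minimum in PB and was singled out after its values were seen, had 50 and 65 reads in PB_WT and 0 in both PB_cKO libraries.

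In whole lung, a mixture of cells in which fewer cells of a type and less RNA per cell cannot be told apart, the neutrophil markers summed to 159 to 201 FPKM in controls and 28.9 to 86.0 after PMN deletion. *Ly6g*, the antibody's target, was at 0.0683 to 0.577 and 0 to 0.118 FPKM and overlapped. None of the 10 members was called, at a background of 0% higher and 0.00715% lower (1 of 13990 genes by limma). None had an unadjusted p below 0.05 either, although 1570 of all genes did. *Commd9* and *Commd2*, among the lowest members in sorted neutrophils, had 11.9 ± 1.73 and 11.6 ± 0.764 FPKM in control lung. *Commd7* and *Commd10* did not overlap, with 6.54, 8.03 and 7.10 against 6.41, 6.40 and 5.90 FPKM for *Commd7*, but their differences of -0.18 (SE 0.09, adjusted p = 0.53) and -0.13 (SE 0.08, adjusted p = 0.62 from limma) did not pass. *Commd5* had 7.96, 9.92 and 6.73 FPKM in controls and 0.653, 9.13 and 6.23 after PMN deletion, where replicate 1 stood apart from the others. With all libraries its difference was -0.88 (SE 0.62, adjusted p = 0.65 from limma), and without that replicate it was -0.09 (SE 0.20). The part of the exon bases shared with *Gm49527* in these whole-lung values was not tested.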

How the data were processed

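Bulk RNA-Seq of 23 samples was used: 17 libraries of sorted neutrophils and 6 of whole lung. The values deposited by the authors are FPKM per gene and library, made with fastp, HISAT2 and HTSeq on mm10 per the labels, in versions not given in the sources used here. The authors' tables of the *Piezo1* experiment also give a group-mean signal (counts divided by size factors), which served here to check read recovery, and their own fold changes and p values, which were not used. From the steps of the deposited FPKM, whole reads were recovered for all 21878 genes (100% of values whole within 0.02). FPKM is set within each library, and 1 gene factor served all neutrophil tables, so libraries of different tables were compared.

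Groups were taken from the labels. Only the libraries of 2 groups entered each fit. Values of log2(FPKM + 1) were modelled with limma 3.58.1 (R 4.3.3), its variance prior following mean level and guarded against outliers. Genes had to reach 1 FPKM in 3 libraries, or 2 for the *Piezo1* experiment, and p values were adjusted after Benjamini-Hochberg. Calls needed an adjusted p below 0.05 and a difference above 1 (0.5 in whole lung). Alternatives were a pseudocount of 0.1, no filter, rescaled FPKM, adjusted p alone, a replicate block, all libraries in 1 fit, each library left out, and edgeR 4.0.16 and DESeq2 1.42.0 on recovered reads. The fits were tested on simulated data. Neutrophil genes were matched by NCBI identifier and whole-lung genes by symbol. The members, lists and tests were chosen with earlier results of these data known. The named genes are all members and Commander partners, up to 4 called genes per list, 5 neighbours of *Commd10* on each side and the 5 genes most like it. Reads carry no molecular identifiers, so limits from reads cover counting error only. The result of 1 gene of the Commander cargo list is not reported here.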

Additional observations from a re-analysis of the deposited data

Results flagged for a closer look

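The difference between *Piezo1*-cKO and WT pointed in opposite directions in lung and PB for *Commd3*, *Commd5* and *Commd9*, with every *Piezo1*-cKO library below every WT library in lung and above in PB. On the log2(FPKM + 1) scale, *Commd9* was at -0.43 in lung and 1.20 in PB, so that PB minus lung was 1.63. *Commd3* was at -0.15 and 0.42, a gap of 0.57, and *Commd5* at -0.13 and 0.22, a gap of 0.35. The gaps were not tested, since the genotype contrast chose the family, and each group holds 2 libraries.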

How the results depend on the processing

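Of the single members' differences outside the genotype contrasts, 616 values under alternatives kept their side of the threshold, 28 lost a call, 48 gained one and 0 called values changed sign. Settings in which a member no longer met the FPKM minimum were left out of this tally, so calls lost that way are not among the 28. With FPKM rescaled, the members called were 4 in lung against BM (7 as reported), 1 in PB against BM (2) and 2 in lung against PB (4), of which 1 was higher. A pseudocount of 0.1 gave 4 members in PB against BM and 7 in lung against PB, beside 29% and 38% of all genes. The adjusted p alone gave 6 in PB against BM, 8 in lung against PB and 9 in lung_WT against PB_WT. Of all genes, 73.1%, 85.5% and 89% passed in these comparisons. On recovered reads, edgeR and DESeq2 each called 2 members in lung against PB, 1 higher and 1 lower, beside 25.5% and 25.4% of all genes. The cause of these changes was not tested. Leaving out 1 library at a time gave 4 to 8 members in lung against BM, 1 to 2 in PB against BM, 2 to 5 in lung against PB, 3 to 5 in lung_WT against PB_WT, 4 to 8 in lung_cKO against PB_cKO, and 0 to 0 in whole lung. The count was 4 in lung against BM without BM replicate 1 or 3, 1 in PB against BM without PB replicate 2 or BM replicate 2, 2 in lung against PB without PB replicate 3, 3 in lung_WT against PB_WT without PB_WT replicate 2, and 5 and 4 in lung_cKO against PB_cKO without PB_cKO replicate 1 and 2. In all of these but PB against BM without PB replicate 2, fewer members met the FPKM minimum. Between genotypes, 50.7% of all genes passed by the adjusted p alone in lung and 49.7% in PB. The contrast of genotypes chose the family, so the number of its members past the limits is no test of it and only describes the settings. It was 1 in lung and 2 in PB, 3 and 5 by the adjusted p alone, and 1 to 1 and 0 to 2 with 1 library left out, the 0 without either PB_cKO replicate, where *Commd9* and *Commd10* did not meet the FPKM minimum. The *Commd10* difference was 4.87 in lung and 7.24 in PB with a pseudocount of 0.1, and 4.15 to 4.26 and 5.36 to 5.82 with 1 library left out; with 1 PB_cKO library left out it could not be fitted under the filter. Same-numbered libraries did not deviate together, and a replicate block gave 7, 2, 4, 5 and 8 members in the tissue comparisons, the same counts as without it, and changed no other count of members. Members with few reads in a library, such as *Commd9*, *Commd10* in WT, and *Commd2*, *Commd3* and *Commd5* in lung, are the least precise.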
